A study of Mus musculus with 6 samples.

Results

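Ptn, Hpgd, Gulo, Cckar and Hp are 5 of the 8269 gene symbols whose chromatin accessibility was scored in embryonic mouse pancreas, and all 5 are also among the 31028 symbols of the matching RNA table. They were chosen by their E13.5 accessibility, which was lower in embryos without an enhancer of Ptf1a than in wild-type embryos. That difference is therefore given as a description. Accessibility at E10.5 and RNA at E10.5 were not used to choose them. The neighbouring genes were not used either, but their E13.5 scores come from the same libraries as the choice. That the 5 genes lie lower than their neighbours there follows from the choice. The change of the wild type with stage is independent in part only, because a high wild-type score at E13.5 enters both that change and the choice.

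All embryos were C57BL/6. The wild-type group (WT) was Ptf1a+/+ and the other group (KO) was homozygous for the enhancer deletion, Ptf1aenh-delta/enh-delta. Pancreatic progenitor tissue pooled from 5 to 9 embryos per dataset was taken at embryonic day 10.5 (E10.5) for single-cell RNA sequencing and for single-cell ATAC sequencing, in which a transposase cuts open chromatin, and pancreas pooled from 6 embryos per dataset was taken at E13.5 for ATAC alone. With 1 library for each genotype, assay and stage, a comparison sets 2 libraries side by side without a replicate error. No test was possible, the intervals given are 95% intervals of counting error, and the ATAC score has none because its read depth is unknown.

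Ptf1a encodes a basic helix-loop-helix factor of the early pancreas that later drives the acinar program. It works in a complex with an E-protein and with RBPJ or RBPJL, which binds an E-box (CANNTG) next to a TTCCCA box. The 5 genes do different things. Ptn encodes pleiotrophin, a secreted heparin-binding growth factor. Hpgd encodes the dehydrogenase that starts the breakdown of prostaglandins. Gulo encodes the last enzyme of vitamin C synthesis, Cckar the cholecystokinin receptor that in adult acinar cells triggers enzyme secretion, and Hp haptoglobin, the plasma protein that binds free haemoglobin and is made chiefly by the liver.

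On GRCm38.p6, Ptn spans chr6:36714924-36810179 on the minus strand, Hpgd chr8:56294552-56321046 on the plus strand, Gulo chr14:65986786-66009254 on the minus strand, Cckar chr5:53698485-53707704 on the minus strand and Hp chr8:109575128-109579172 on the minus strand. RefSeq promoter windows, from 250 bases before to 50 after the annotated start, were matched for 2 of the 5, Ptn and Hpgd. They are shown because the gene score reads accessibility around genes and because the boxes that the Ptf1a complex is known to bind can be looked for in them. The Ptn window lies at chr6:36810130-36810429 (minus strand) and the Hpgd window at chr8:56294302-56294601 (plus strand). Capitals mark matches to CANNTG or TTCCCA on either strand.
Ptn: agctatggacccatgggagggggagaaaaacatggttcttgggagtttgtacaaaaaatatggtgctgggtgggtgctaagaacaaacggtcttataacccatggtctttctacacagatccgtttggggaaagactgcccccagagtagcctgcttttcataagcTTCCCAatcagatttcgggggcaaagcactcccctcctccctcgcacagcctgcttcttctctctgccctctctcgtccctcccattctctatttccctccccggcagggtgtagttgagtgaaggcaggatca
Hpgd: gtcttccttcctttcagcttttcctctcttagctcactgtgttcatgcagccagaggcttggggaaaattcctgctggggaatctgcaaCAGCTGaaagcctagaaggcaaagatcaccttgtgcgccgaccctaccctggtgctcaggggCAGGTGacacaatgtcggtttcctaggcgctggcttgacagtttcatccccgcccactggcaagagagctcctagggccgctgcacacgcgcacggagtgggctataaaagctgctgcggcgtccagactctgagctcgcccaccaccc
The Ptn window held 1 TTCCCA match and 0 CANNTG matches, whereas the Hpgd window held 2 CANNTG matches, 1 of them the CAGCTG form, and 0 TTCCCA matches. Among all 32851 windows of this length, 72.3% held CANNTG, 16.3% held CAGCTG and 25.6% held TTCCCA. The other motifs searched had no match in either window on either strand. They were AGATAA for the GATA factors, which was present in 11.2% of all windows, and TGTTTAC for the FOXA factors, present in 3.65% of them. The search also covered GTTAAT for the HNF1 factors, present in 7.10% of all windows, and CACTTA for the factor NKX2-2, present in 9.20%. The last was TAATTA for homeodomain factors in general, which 5.29% of the windows held. A match is a run of letters and not a binding site.

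The ATAC gene score is scaled so that every cell sums to 10000 over all genes. Red-cell-like nuclei formed 7.48% of the WT and 43.0% of the KO library at E13.5, counted as cells whose summed score of Slc4a1, Gypc, Tal1 and Lyl1 was at least 15. They were left out of the main values, which leaves 2141 WT and 343 KO cells, and values over all cells are given beside them. At E10.5 the same limit left out 5 of 838 WT and 9 of 700 KO cells. The E13.5 cells that stayed differed in depth, with a median of 3549 genes above 0 in WT and 5371 in KO. The barcodes of the E13.5 libraries also carry different months, and genotype and month cannot be told apart. As a check of the labels, Ptf1a RNA was counted 142 times in the kept WT cells and 0 times in the kept KO cells at E10.5. The mean Ptf1a score was 2.42 in WT and 1.69 in KO at E10.5, and 4.01 and 1.67 at E13.5.

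At E13.5 each of the 5 genes had a lower mean score in KO than in WT, the property they were selected on. Ptn, the growth factor, averaged 1.09 in WT and 0.521 in KO, which is -1.07 on the log2 scale and the 3rd lowest of 8222 genes tested, where Ptf1a was the lowest at -1.26. Hpgd, the prostaglandin dehydrogenase, had 0.882 and 0.437 (log2 -1.01, 5th lowest). Gulo had 1.22 and 0.627 (log2 -0.96, 7th lowest) and Cckar, the receptor, had 1.12 and 0.627 (log2 -0.83, 15th lowest). Hp, the plasma protein gene, had 0.484 and 0.290 (log2 -0.74, 34th lowest), or 0.474 and 0.199 (log2 -1.25) without the highest cell of each library. All 5 were past a log2 of -0.5, as were 1.79% of all genes tested, and 1.92% were past 0.5 in the other direction. Nothing is read from that count, since this contrast chose the genes.

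Over all cells, red-cell-like ones included, the log2 ratios were -1.65 for Ptn, -1.57 for Hpgd, -1.56 for Gulo, -1.43 for Cckar and -1.19 for Hp. In that set 16% of all genes were past log2 -0.5 and 9.36% past 0.5. The red-cell-like cells themselves had little signal at these genes, with mean scores of 0.143 to 0.456 in WT and 0.0681 to 0.0861 in KO. The lower level in KO was thus present with and without these cells and was smaller without them.

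**Figure D1:**
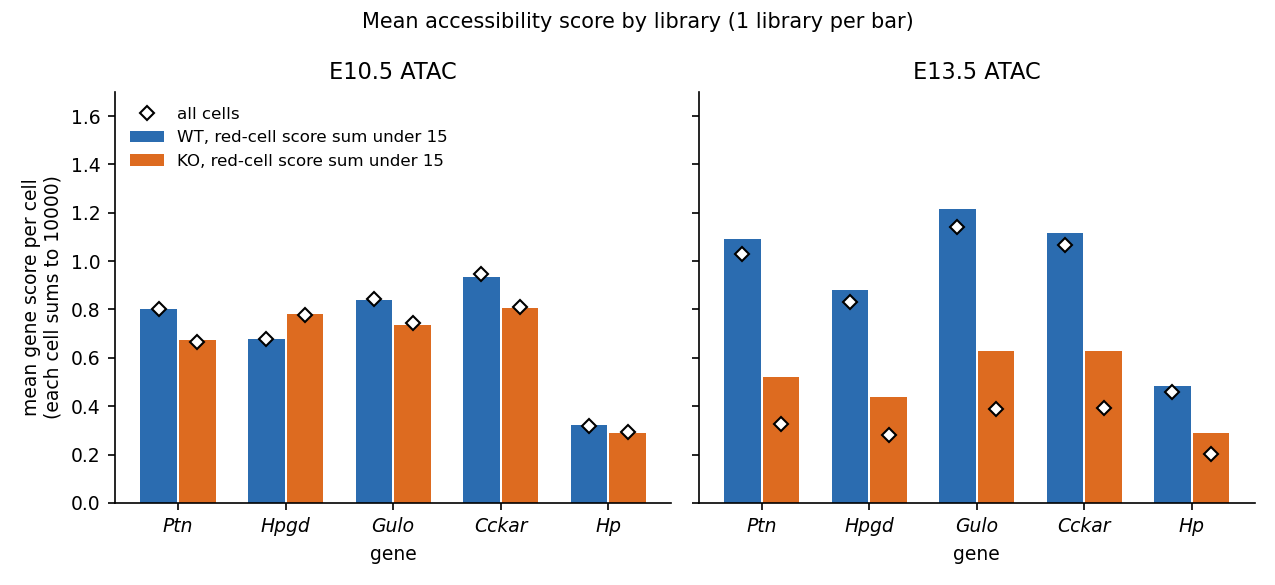
Mean ATAC gene score per cell (y axis, each cell scaled to 10000) of the 5 genes in the WT (blue) and KO (orange) libraries at E10.5 (left) and E13.5 (right). Bars are cells with a red-cell score sum under 15 and diamonds are all cells of the same library. At E13.5 each KO bar is below its WT bar, with Ptn at 0.521 against 1.09, and at E10.5 the bars of a pair differ less.

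Outside the erythroid-like cluster, the mean was lower in KO in each cluster for each gene, with 2 exceptions. The largest E13.5 cluster, 1195 WT and 239 KO cells in which all 10 measured trunk and duct genes were raised over the other cells, gave log2 ratios of -0.99 for Ptn, -0.69 for Hpgd, -0.63 for Gulo, -1.08 for Cckar and -1.30 for Hp. In the endocrine-like cluster of 360 WT and 49 KO cells the ratios were -0.94, -0.82, -1.08, 0.05 and -1.73 in the same order. Cckar thus had about the same mean there in both genotypes, 0.883 in WT and 0.917 in KO. The -1.73 of Hp rested on few KO cells. Hp was above 0 in 45 kept KO cells, and the largest cluster had 39 KO cells above 0. In the cluster of cells with few genes above 0, with 619 WT cells but 42 KO cells, the mean of Hp was higher in KO, at 0.975 against 0.441. That value came from 2 KO cells above 0, 1 of them at 31.6, and without the highest cell of each library the means were 0.227 in KO and 0.404 in WT. In the erythroid-like cluster the mean scores of the 5 genes were 0.0119 to 0.192 in WT and 0.0601 to 0.0871 in KO. Among the kept cells, marker lists had summed mean scores of 15.3 in WT and 15.7 in KO for mesenchyme, 7.13 and 7.83 for liver, 13.4 and 15.5 for red cells, 20.1 and 16.8 for endocrine cells, 54.6 and 45.5 for pancreatic progenitors and epithelium, 18.6 and 15.3 for tip and acinar cells and 40.3 and 33.0 for trunk and duct. Their part in the lower scores was not tested.

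The lower mean was not a lower share of cells with any signal, taken as deposited. Ptn was above 0 in 50.1% of WT cells (exact binomial interval 48.0 to 52.3) and 53.9% of KO cells (48.5 to 59.3), and Gulo in 45.3% (43.1 to 47.4) and 53.4% (47.9 to 58.7). These intervals count the cells of 1 library each and do not cover differences between libraries or in depth. Hpgd stood at 38.7% and 43.1%, Cckar at 42.4% and 48.1%, and Hp at 13.3% and 13.1%. The mean score of the cells above 0 was lower in KO for each gene, at 2.18 in WT and 0.966 in KO for Ptn and 3.64 and 2.21 for Hp. When the cells of both libraries were weighted to the same spread of genes above 0, the shares were lower in KO for all 5 genes. Ptn was then above 0 in 58.8% of WT and 45.2% of KO cells, Hpgd in 46.4% and 34.2%, Gulo in 53.4% and 43.2%, Cckar in 49.6% and 41.0%, and Hp in 16.6% and 10.5%. The weighted log2 ratios of the means were -1.08, -1.09, -1.05, -0.75 and -0.65. The share of cells above 0 therefore changed its direction with this weighting for Ptn, Hpgd, Gulo and Cckar, and the means stayed lower in KO for all 5.

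**Figure D2:**
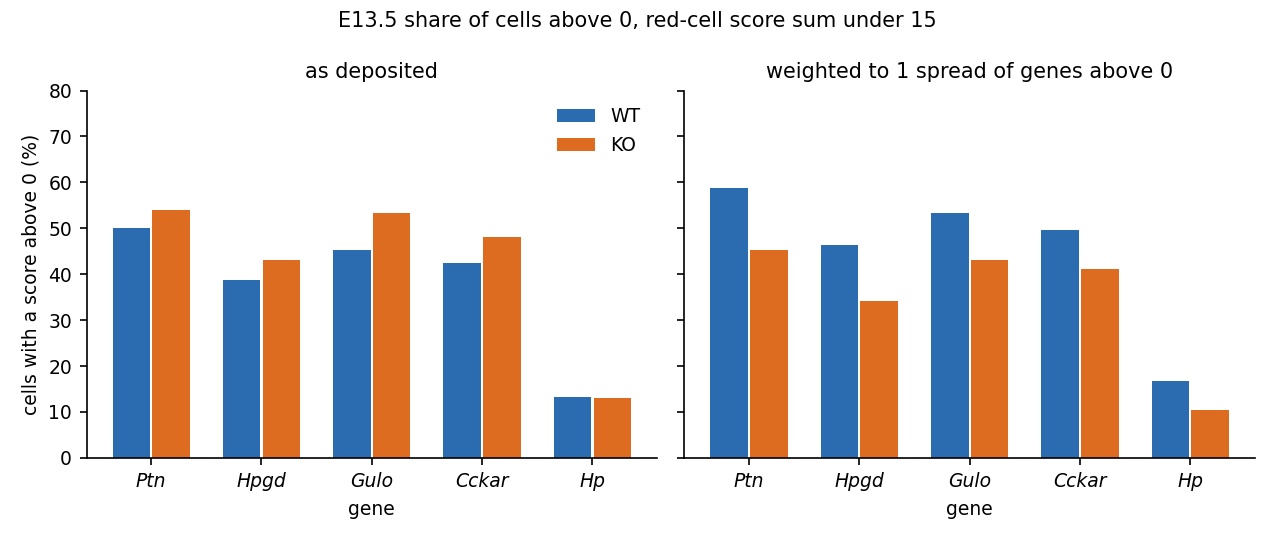
Share of E13.5 cells with a score above 0 (y axis, percent) for the 5 genes in WT (blue) and KO (orange), as deposited (left) and weighted to 1 spread of genes above 0 (right), cells with a red-cell score sum under 15. The KO bar for Ptn is above the WT bar on the left (53.9% and 50.1%) and below it on the right (45.2% and 58.8%).

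Within 3 equal parts of the cells by number of genes above 0, the part with the most genes (620 WT and 208 KO cells) gave log2 ratios of -0.93 for Ptn, -0.61 for Hpgd, -0.42 for Gulo, -0.77 for Cckar and -1.12 for Hp. In the part with the fewest genes, of 764 WT but 64 KO cells, Hp was higher in KO at 0.69, while Hpgd stood at -2.75. Hp was above 0 in 4 of those KO cells and stood at -0.75 without the highest cell of each library, and Hpgd was above 0 in 2 of them. Gulo ran from -1.99 in the shallowest cells to -0.42 in the deepest, whereas Ptn ran from -1.28 to -0.93.

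**Figure D3:**
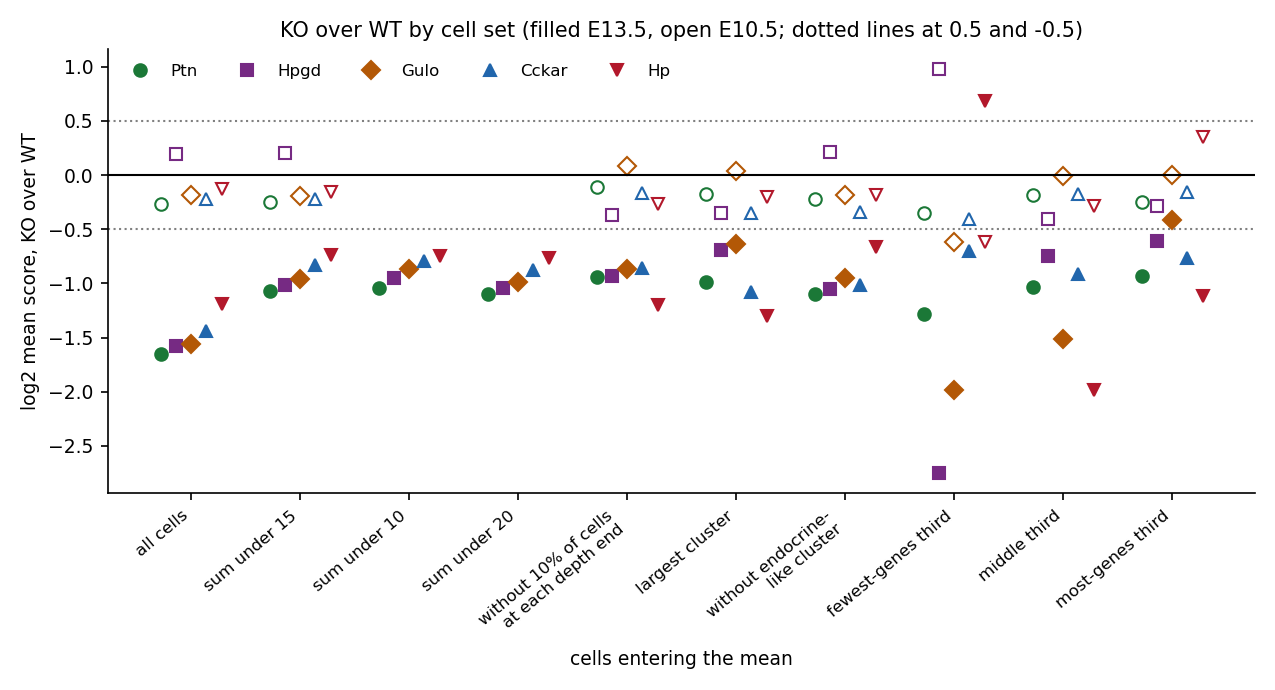
Log2 ratio of mean score, KO over WT (y axis), by the cells entering the mean (x axis), for the 5 genes at E13.5 (filled) and E10.5 (open), with dotted lines at 0.5 and -0.5. Of the filled points 1, Hp in the cells with the fewest genes at 0.69, lies above 0, as does the open point of Hpgd in the same part at 0.98. The open points, not drawn at sums under 10 and 20, otherwise lie between -0.5 and 0.5 outside the parts by depth.

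At E10.5, in libraries the choice did not use, the same genes differed less than in the E13.5 contrast that chose them. Ptn had a mean score of 0.800 in 833 WT cells and 0.674 in 691 KO cells (log2 -0.25, 444th lowest of 8219 genes). Gulo had 0.841 and 0.735 (log2 -0.19, 794th lowest), Cckar 0.936 and 0.804 (log2 -0.22, 599th lowest) and Hp 0.321 and 0.289 (log2 -0.16, 1178th lowest). Hpgd alone was higher in KO, at 0.678 in WT and 0.781 in KO (log2 0.20). None of the 5 was past log2 -0.5 or 0.5 in the main set, where 0.438% of all genes were lower and 0.231% higher (0.414% and 0.231% over all cells). Ptf1a was at -0.52. The higher Hpgd value rested on 1 KO cell with a score of 159. Without the highest cell of each library Hpgd stood at 0.658 in WT and 0.552 in KO (log2 -0.25), and the largest E10.5 cluster, which does not hold that cell, gave 0.641 and 0.502 (log2 -0.35, 82nd lowest of 8224). In that largest cluster Cckar also stood at -0.35 (86th lowest), Ptn at -0.18, Hp at -0.21 and Gulo at 0.04. In the E10.5 cells with the fewest genes above 0 the ratios were -0.35 for Ptn, -0.61 for Gulo, -0.41 for Cckar and -0.62 for Hp, and Hpgd stood at 0.98, or at 0.00 without the highest cell of each library.

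In WT each gene had a higher mean score at E13.5 than at E10.5, and stage, dissection and library cannot be told apart in this comparison. Hp stood at 0.321 and 0.484 (log2 0.59, 115th highest of 8213 genes) and Gulo at 0.841 and 1.22 (log2 0.53, 180th highest). Ptn had a log2 change of 0.45, Hpgd 0.38 and Cckar 0.25, against 0.73 for Ptf1a. Past a log2 of 0.5 were 2 of the 5, Hp and Gulo, and 2.68% of all genes tested. The WT median of genes above 0 was 4836 at E10.5 and 3549 at E13.5. The WT share of cells above 0 went from 56.5% to 50.1% for Ptn, 44.1% to 38.7% for Hpgd and 48.7% to 45.3% for Gulo. It went from 56.4% to 42.4% for Cckar and from 11.2% to 13.3% for Hp. Weighted to the same spread of genes above 0, the share was higher at E13.5 except for Cckar, at 49.6% and 47.4%. In KO the log2 change of the mean between stages was -0.37 for Ptn, -0.84 for Hpgd, -0.23 for Gulo, -0.36 for Cckar and 0.01 for Hp, and -0.02 for Ptf1a. The largest clusters alone gave -0.32, 0.04, -0.09, -0.42 and -0.47 for the same 5 genes in KO, and without the highest cell of each library the 5 values were -0.37, -0.40, -0.24, -0.37 and -0.37. The -0.84 of Hpgd and the 0.01 of Hp thus rested on 1 cell each, the E10.5 cell named above and an E13.5 KO cell with an Hp score of 31.6. The E13.5 libraries enter both the stage change and the KO over WT ratio, so these are not separate evidence.

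The 5 genes differed from each other in RNA at E10.5. Ptn RNA was lower in KO, Hpgd RNA was lower with a wide interval, Gulo RNA differed by less than its counting error, and Cckar and Hp were at the edge of detection. The kept cells, with at least 1000 genes, numbered 451 in WT (median 6700 UMIs) and 369 in KO (median 9856). Ptn gave 747 UMIs in WT, or 182 CPM (UMIs scaled to a common total; 169 to 195), and 367 in KO, 91.5 CPM (82.4 to 101). Its ratio of KO to WT was 0.503 (0.443 to 0.571). With 10 CPM added its log2 ratio was -0.92, the 36th lowest of 10367 genes with at least 50 UMIs. Hpgd gave 60 and 30 UMIs, a ratio of 0.512 (0.319 to 0.806), and Gulo 155 and 131, a ratio of 0.865 (0.680 to 1.10). The endocrine-like cluster, with Hpgd at 4.38 CPM in WT, made up 13.1% of the kept WT and 33.6% of the kept KO cells, and no cluster had an Hpgd ratio whose interval excluded 1. Cckar gave 4 UMIs in WT and 0 in KO, and Hp 0 in WT and 4 in KO, too few to compare. Ptn alone was past log2 -0.5, with Hpgd at -0.49 and Gulo at -0.16. Of all genes, 2.35% were that much lower and 5.98% that much higher in KO, with a median log2 of 0.13.

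Ptn RNA at E10.5 was not confined to the progenitor-like cluster, and no RNA was measured at E13.5, the stage of the choice. Its CPM in WT was highest in the mesenchyme-like clusters. It stood at 403 CPM (362 to 448) in cluster 0, led by genes such as Plagl1 and Col3a1, and at 309 (264 to 361) in cluster 4. It was 110 (94.5 to 127) in the progenitor-like cluster and 24.8 (14.5 to 39.7) in the endocrine-like cluster. By share of WT cells with a Ptn UMI the order differed, at 66.7% in the progenitor-like cluster, 58.1% in cluster 0 and 71.4% in cluster 4. Depth differed too, with a median of 12928, 2454 and 21178 UMIs in the same order. The leading genes of the progenitor-like cluster included Hhex, Cpa1 and Onecut1 and also the plasma protein genes Vtn and Gc. Gulo was highest in the progenitor-like cluster at 58.5 CPM (47.5 to 71.4), with 11.7 (5.04 to 23.0) in endocrine-like cells. Its intervals overlapped those of cluster 0, at 38.3 (26.4 to 53.9), and of the unnamed cluster 3, at 42.4 (24.2 to 68.9). Hpgd stood at 21.7 (15.2 to 30.1) in progenitor-like cells and at 23.8 (10.9 to 45.3) in cluster 3, which do not differ beyond their intervals. Of the 4 Cckar UMIs 3 lay in the progenitor-like cluster, as did 3 of the 4 Hp UMIs.

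Ptn was lower in KO within both mesenchyme-like clusters and within the progenitor-like cluster. In the progenitor-like cluster (123 WT and 75 KO cells) it stood at 110 CPM in WT and 42.7 in KO, a ratio of 0.389 (0.280 to 0.532). With 10 CPM added its log2 ratio there was -1.19, the 32nd lowest of 6959 genes. The ratio without added CPM was 0.504 (0.400 to 0.635) in cluster 4 and 0.672 (0.550 to 0.819) in cluster 0. In the endocrine-like cluster it was 0.668 (0.336 to 1.35) and in cluster 3 it was 0.952 (0.384 to 2.07), both with intervals that include 1. The mesenchyme list summed to 1270 CPM in WT and 2142 in KO in the progenitor-like cluster, or 104 and 131 without Dlk1, its most abundant gene there. In cluster 4 it summed to 1228 and 1334, or 1042 and 810 without Barx1, and in cluster 0 to 2023 and 2103. Cluster 4 also held endocrine RNA, with that list at 20615 CPM in WT and 14421 in KO, beside 466 and 330 in cluster 0. Without Gcg, its most abundant gene, the list stood at 3700 and 3666 in cluster 4 and at 265 and 209 in cluster 0. In the progenitor-like cluster the liver list summed to 922 CPM in WT and 2087 in KO, or 505 and 1057 without Ttr. The tip and acinar list summed to 524 and 110 there, or 296 and 109 without Cpa1. The part of these levels in the Ptn values was not tested. Barcodes under 1000 genes, left out of these values, held Ptn at 353 CPM in WT and 235 in KO, above the kept cells of either library. The part of free RNA in the Ptn values was not tested. Hpgd in the progenitor-like cluster stood at 21.7 and 12.3, with a ratio of 0.567 (0.288 to 1.06), and Gulo at 58.5 and 69.8, with a ratio of 1.19 (0.880 to 1.61).

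**Figure D4:**
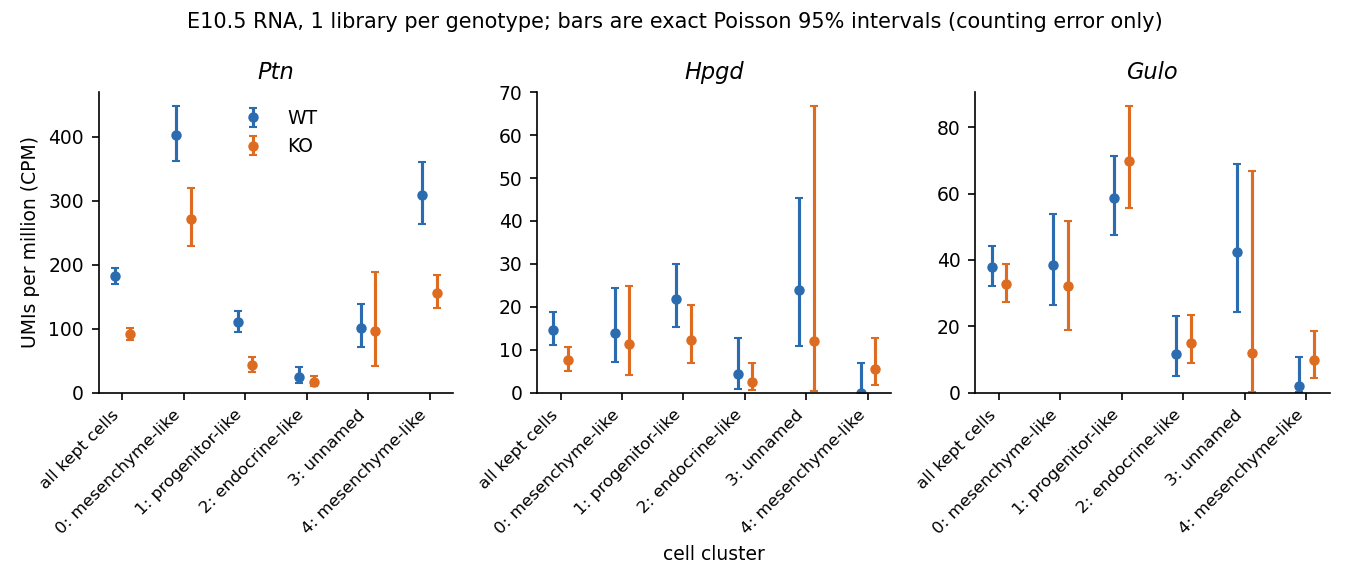
E10.5 RNA level of Ptn, Hpgd and Gulo (y axis, CPM, own scale for each gene) in all kept cells and in each of 5 clusters, WT (blue) and KO (orange), with exact Poisson 95% intervals of counting error. Ptn is highest in the 2 mesenchyme-like clusters and lower in KO in both, and its progenitor-like points lie at 110 in WT and 42.7 in KO, while the Gulo intervals of the 2 genotypes overlap.

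The nearest measured genes had E13.5 ratios closer to 0 than the 5 genes. This follows from the choice of the 5 as low in the same contrast, so nothing is read from it. Of 30 such neighbours, 3 on each side of each gene, 0 were past log2 0.5 in either direction, beside 1.79% lower and 1.92% higher among all genes, so a count of 0 is near the background. Their median was 0.01. The lowest was Aga, beside Hpgd, at -0.48, followed by Clu at -0.37, Spcs3 at -0.28 and Tbc1d19 at -0.26, and the highest was 1810058I24Rik, beside Ptn, at 0.37. Gulo lies 5.24 kb from Clu, the clusterin gene, which stood at 1.66 in WT and 1.29 in KO (log2 -0.37). Hp lies 9.27 kb from Dhx38 and 14.1 kb from Dhodh, which stood at -0.10 and -0.06 where Hp was at -0.74. Cckar lies 41.0 kb from Rbpj, which encodes a partner of Ptf1a in its complex, and Rbpj had a mean score of 1.38 in WT and 1.27 in KO (log2 -0.11).

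**Figure D5:**
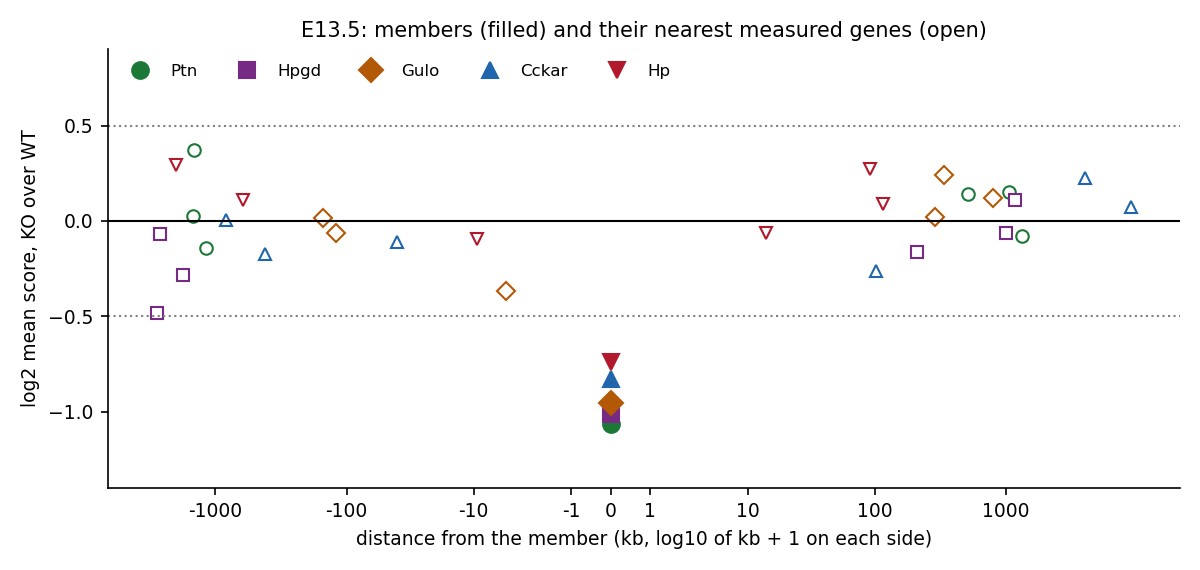
Log2 ratio of mean E13.5 score, KO over WT (y axis), of the 5 genes (filled, at distance 0) and of the 3 nearest measured genes on each side (open, same symbol) against distance (x axis, kb, log scale on each side). The filled points lie from -1.07 to -0.74 and the 30 open points from -0.48 to 0.37.

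Across single cells Cckar had the highest correlation of the 5 genes with the Ptf1a score, and Hpgd was under the median of all genes. Over 2141 WT cells at E13.5, which share 1 library, its depth and its scaling, Pearson's r of ln(1 + score) with Ptf1a was 0.134 for Cckar, the 27th highest of 8183 genes, 0.0823 for Gulo, 0.0589 for Ptn, 0.0346 for Hp and 0.0198 for Hpgd. The median over all genes was 0.0227 and the 95th percentile 0.0780. Given the number of genes above 0, r was 0.113 for Cckar, and in the largest cluster alone (1195 cells) it was 0.164, the 12th highest of 8202. In that cluster Cckar was above 0 in 59.7% of the 872 cells with a Ptf1a score and in 35.6% of the 323 without, with a median of 4343 and 3693 genes above 0. In the largest cluster of the other libraries r was lower for Cckar. It was 0.0472 in KO at E13.5, 0.0638 in WT at E10.5 and 0.0562 in KO at E10.5. The medians over all genes there were 0.0171, 0.0128 and 0.00632. In the 343 KO cells r was 0.0993 for Cckar and 0.221 for Gulo, above the median of 0.0634 over all genes, and 0.0191 for Ptn, 0.0491 for Hpgd and -0.0121 for Hp, below it. At E10.5 in WT (833 cells) the order differed, with Hpgd at 0.133, Cckar at 0.105, Ptn at 0.0963, Gulo at 0.0447 and Hp at 0.00312. The median over all genes was 0.0595 there and the 95th percentile 0.126, so Gulo and Hp lay below the median. Given the number of genes above 0, the 5 values were 0.101, 0.0373, 0.0573, 0.0169 and -0.0250 in the same order. In sparse scores such weak correlations describe these libraries only.

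The 5 genes followed each other weakly at most across the same cells. Their 10 pairs had r from -0.01 to 0.09 in WT at E13.5. The genes most like each of them lay on the same chromosome. Of the 15 most similar genes, 3 for each, 15 were on the chromosome of the gene itself, and among the 100 most similar to Ptn 59 were on chromosome 6, which holds 5.07% of the genes compared. Cckar was most like Rbpj (r = 0.266) and Tbc1d19 (0.232), Gulo like Clu (0.210), and Hp like Dhodh (0.361). These pairs lie 41.0, 102, 5.24 and 14.1 kb apart in that order. The gene window behind the score was not given, so genes this near may share signal, which was not tested. Ptn was most like Mest (0.147), 5966 kb away, and Hpgd like Dlc1 (0.130).

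The pathways around the 5 genes held no other gene past the threshold at E13.5, which is near the background of 1.79% lower and 1.92% higher. Of 11 measured genes of pleiotrophin and midkine signalling besides Ptn, the receptors and syndecans among them, 0 were past log2 0.5 either way (median -0.03, from Sdc1 at -0.33 to Itgb3 at 0.46). The same held for 11 genes of prostaglandin synthesis, transport and receptors (median -0.02), 6 of ascorbate synthesis and transport (median 0.08), 8 of cholecystokinin and gastrin signalling (median -0.06) and 13 of haptoglobin, haem and acute-phase proteins (median 0.06), beside a median of 0.01 over all genes. Gast, the gastrin gene, was the lowest of the cholecystokinin list at -0.36. At E10.5 the first 4 lists again had 0 genes past the threshold, and the haptoglobin list had 2 of 14 lower in KO. Among all genes tested at E10.5, 0.438% were that much lower and 0.231% that much higher. The 2 were Fgg at -0.59 and Fga at -0.57, both fibrinogen chains, while Fgb, another fibrinogen chain, was at -0.03. In RNA at E10.5, Cck, which encodes the peptide that Cckar binds, was higher in KO at log2 1.13. Cck is among the 10 leading genes of the endocrine-like cluster, whose larger share in KO is given above, and its part in that value was not tested.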

How the data were processed

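The deposited RNA table holds raw UMI counts and the deposited ATAC tables hold a gene-level accessibility signal, per the file headers and values, scaled by the authors so that each cell sums to 10000. The build is mm10, per the submitters' processing notes. The aligner, the annotation, the cell filter and the tool behind the signal were not given in the sources used here. There were 0 columns of other samples. The members and gene lists were chosen with earlier results of these data known. The named genes are the 5 members, Ptf1a, the extremes of each list, the 3 most similar genes and, added later, the neighbours. ATAC ratios compare mean scores, for genes that 10% or more of a library's cells have above 0, and RNA ratios compare CPM, the counts scaled to a common total. Cells with a red-cell score sum of 15 or more were left out; 104 WT and 27 KO E13.5 cells lay between 10 and 20. Clusters came from scanpy 1.11.5 and leidenalg 0.10.2 (2000 variable genes, 30 components, 15 neighbours, resolution 0.3), without Ptf1a, the tip/acinar list and the members, and were named here from marker lists. Doublets called with scrublet in the RNA were kept, and no doublet caller was run on ATAC cells. Libraries shared 0 barcodes at E10.5 ATAC, 2 at E13.5 ATAC and 1 in RNA. RNA libraries held 4665222 UMIs (WT) and 4360076 (KO). Intervals are exact Poisson, Clopper-Pearson and conditional, at 95%. The ratios, the intervals and the correlation were tested on simulated data. Alternatives were other red-cell limits, depth, summary, scaling, pseudocount, cell filter and cell class.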

Additional observations from a re-analysis of the deposited data

Results flagged for a closer look

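The accessibility change from E10.5 to E13.5 had opposite signs in the 2 genotypes for 4 of the 5 genes, with 1 library in each arm. In KO it was -0.37 (log2) for Ptn, -0.84 for Hpgd, -0.23 for Gulo and -0.36 for Cckar, and in WT it was 0.45, 0.38, 0.53 and 0.25. The difference was not tested, and it follows in part from the choice of the genes on their E13.5 values. The share of all genes with opposite signs is not given here, so nothing is read from the count of 4. That count also varied with the cells used. In KO, Hpgd was at 0.04 in the largest clusters, and Hp was at -0.37 without the highest cell of each library. For Hpgd the KO over WT ratio also had opposite signs at the 2 stages, 0.20 at E10.5 and -1.01 at E13.5. That difference was not tested either, and the E10.5 value rested on 1 KO cell, being -0.25 without the highest cell of each library. The KO stage change of Hpgd was -0.40 without these cells.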

How the results depend on the processing

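Of 75 alternative values of the E13.5 ratio, 63 stayed within 1.5 times the main value, 7 moved further and 5 reversed. The share of cells above 0 gave log2 ratios of 0.11 for Ptn, 0.16 for Hpgd, 0.24 for Gulo, 0.18 for Cckar and -0.021 for Hp. All cells gave -1.56 for Gulo and -1.43 for Cckar. The part of the cells with the fewest genes of 3 equal parts by depth gave -2.75 for Hpgd, -1.99 for Gulo and 0.69 for Hp, and the middle part gave -1.98 for Hp. Leaving out the cluster of few genes above 0 gave -1.35 for Hp. At E10.5, 63 of 65 values stayed within the same limit, with Hpgd at 0.98 in the part with the fewest genes and -0.40 in the middle part. The sign at E10.5 varied for Ptn, Hpgd, Gulo and Hp, in 1, 8, 5 and 2 of 13 values each. All 35 values of the stage change in WT stayed within the limit, and the share of cells above 0 was not among them. For RNA, 9 of 27 values moved beyond the counting interval, each in a single cluster. Ptn was at -0.56, -1.19, -0.39 and -0.065 in clusters 0 to 3, Hpgd at 0.63 in cluster 4, and Gulo at 0.22, 0.21, -1.25 and 0.74 in clusters 1 to 4. Hpgd in cluster 4 rested on 0 UMIs in WT and 5 in KO. Gulo rested on 16 and 1 in cluster 3 and on 1 and 9 in cluster 4. The cluster's own ratio interval held the ratio of all kept cells for Ptn in clusters 1 to 3 and Gulo in clusters 2 to 4. The correlation with Ptf1a moved by over 0.1 in 1 of 25 values, to 0.221 for Gulo in KO cells. The 3 parts by depth, the sets without the shallow cluster or without the highest cell of each library, and the largest cluster for the stage change were added after the data had been seen. No paired analysis was possible because each group held 1 library. Read depth behind the ATAC score is unknown.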
